A study of Mus musculus with 12 samples.

Results

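β-cells and non-β-cells of 8-week-old female NOD mice were compared across 15598 genes, those of 52962 gene identifiers that had more than 1 CPM (counts-per-million of a library) in at least 3 of the 12 libraries of the series. NOD is a mouse strain that develops autoimmune diabetes. Islet cells had been separated by size and their own fluorescence into a β and a non-β fraction, with 3 libraries of each at 8 weeks, and the same fractions at 4 weeks made up the other libraries. Per the study's figure legends each library came from a pool of 3 mice, and CD45-positive leukocytes were sorted away. Per its methods mouse islets were cultured overnight and dispersed with trypsin before sorting. The labels do not state the pools, so the p-values measure the spread between these libraries. The methods give forward scatter, a measure of cell size, followed by fluorescence and CD45 as the basis of the sort, and no marker of an islet cell type. A figure legend adds granularity. After the sort, the study stained the fractions for insulin, glucagon and somatostatin. It reported the β fraction as enriched for insulin and the non-β fraction for glucagon.

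β-cells make and secrete insulin when glucose rises, which they sense through glucose uptake, phosphorylation and the closure of potassium channels. The other endocrine cells of the islet are α-cells, which secrete glucagon, δ-cells, which secrete somatostatin, and PP-cells, which secrete pancreatic polypeptide. Endothelial cells, pericytes, fibroblasts and Schwann cells lie among them. In NOD mice the islets are infiltrated by immune cells before diabetes appears.

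The 3 β libraries held 21584485 to 27040652 estimated counts and the 3 non-β libraries 13755106 to 22851762, and the shallowest was non-β replicate 2. Across all tested genes the log2 CPM of the libraries correlated at 0.971 to 0.975 among β libraries, 0.958 to 0.962 among non-β libraries and 0.816 to 0.845 between the fractions. The first principal component of the 6 libraries held 78.8% of the variance and separated the fractions. The second held 5.89% and spread the non-β libraries, from -43.8 for replicate 1 to 43.9 for replicate 3.

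At 8 weeks, 7679 genes (49.2% of those tested) differed between the fractions at an adjusted p under 0.05. Of these, 3688 (23.6%) were higher and 3991 (25.6%) lower in β-cells, and the median log2 difference of all tested genes was 0.014. The 3 β libraries did not overlap the 3 non-β libraries in 10116 genes, or 64.9%. The numbers of genes in the 2 directions were close, but the sizes were not. Among called genes the median absolute log2 difference was 0.743 for those higher in β-cells and 1.55 for those lower. At least 4-fold differences were seen in 402 genes higher and 1656 lower, and at least 16-fold differences in 83 and 722. Of 13603 protein-coding genes tested 3457 were higher and 3705 lower, whereas of 385 lincRNAs 53 were higher and 88 lower, and of 567 processed pseudogenes 61 were higher and 18 lower. In bulk RNA of this kind, fewer cells of a type and less RNA per cell cannot be told apart.

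**Figure D1:**
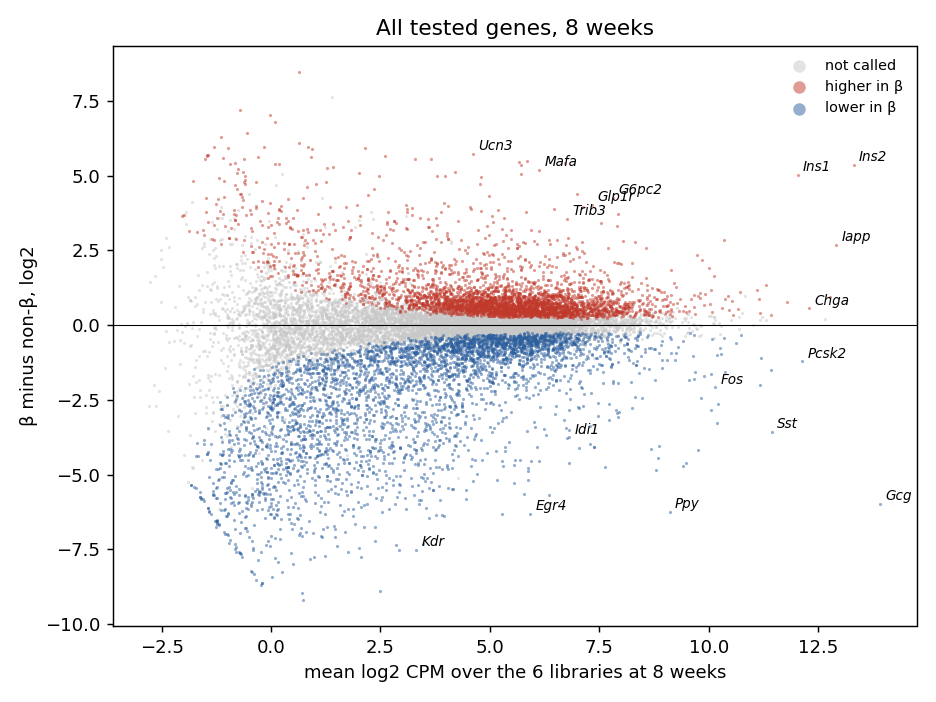
Mean log2 CPM over the 6 libraries at 8 weeks (x axis) against the log2 difference of β minus non-β (y axis) for the 15598 tested genes, coloured by the limma-voom call. The cloud of the 3991 genes lower in β-cells reaches further from 0 than that of the 3688 higher ones, and Ins2 and Gcg stand at its right edge in opposite directions.

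The hormone genes checked the sort. Ins2 (ENSMUSG00000000215) spans 142678656 to 142743381 of chromosome 7 in GRCm38 and encodes one of the 2 mouse insulins. It had 63100, 67350 and 64170 CPM in the β libraries and 1403, 1687 and 1670 in the non-β libraries. Its paralogue Ins1 had 23540, 23960 and 23830 against 658, 759 and 788 CPM. The log2 differences were 5.36 (SE 0.21, adjusted p 8.95e-10) for Ins2 and 5.02 (SE 0.22, adjusted p 2.07e-09) for Ins1, and how reads shared by these 2 similar transcripts were divided is uncertain. The insulin genes took 8.68% to 8.96% of all counts in β libraries and 0.208% to 0.238% in non-β libraries. Iapp, which encodes the amyloid peptide secreted with insulin, was at 19480 ± 502 CPM in β and 3033 ± 256 in non-β libraries (SD, n = 3 each), a smaller log2 difference of 2.69 (SE 0.17, adjusted p 5.03e-08).

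Glucagon, somatostatin, pancreatic polypeptide and peptide YY transcripts were all lower in β-cells. Gcg (ENSMUSG00000000394) lies on chromosome 2 from 62474530 to 62483650 and had 2443, 1413 and 2113 CPM in β libraries and 110900, 125100 and 132600 in non-β libraries, a log2 difference of -5.98 (SE 0.21, adjusted p 3.39e-10). It was the source of 0.139% to 0.245% of β counts and 11.2% to 12.6% of non-β counts. The spread of Gcg among β libraries was the widest of these hormones in relative terms, with replicate 2 lowest. Sst had 763, 806 and 849.7 CPM in β and 7587, 10550 and 10870 in non-β libraries, a difference of -3.57 (SE 0.27, adjusted p 3.22e-07). Its gap was the smallest of the 4 hormones, with a β mean at 8.34% of the non-β mean against 1.62% for Gcg. Ppy, the pancreatic polypeptide gene, had 69.3, 63.3 and 58.1 against 4018, 5389 and 5070 CPM (-6.24, SE 0.27, adjusted p 1.76e-09), and Pyy 138, 126 and 136 against 2748, 3910 and 3905 CPM (-4.71, SE 0.23, adjusted p 5.07e-09). For every one of these hormones non-β replicate 1 was the lowest of the non-β libraries. The ghrelin gene Ghrl was not tested, with 3.15 CPM in non-β replicate 1 and none in the other 5 libraries.

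The promoters of the 2 hormones that marked the sort are shown because both hold the letters of the E-box known from the insulin genes, CATCTG on either strand, which is in capitals. The 250 bases before the RefSeq start (GRCm38.p6) lie at chr19:52264047-52264296 on the plus strand for Ins1 and at chr2:62483654-62483903 on the minus strand for Gcg, and each is written 5′ to 3′ toward its gene. Ins2 had no entry.
Ins1: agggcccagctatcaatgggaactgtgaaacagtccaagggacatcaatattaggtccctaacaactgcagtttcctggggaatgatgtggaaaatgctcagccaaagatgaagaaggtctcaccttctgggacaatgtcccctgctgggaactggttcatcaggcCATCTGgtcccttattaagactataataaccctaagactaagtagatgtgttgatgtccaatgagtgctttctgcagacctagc
Gcg: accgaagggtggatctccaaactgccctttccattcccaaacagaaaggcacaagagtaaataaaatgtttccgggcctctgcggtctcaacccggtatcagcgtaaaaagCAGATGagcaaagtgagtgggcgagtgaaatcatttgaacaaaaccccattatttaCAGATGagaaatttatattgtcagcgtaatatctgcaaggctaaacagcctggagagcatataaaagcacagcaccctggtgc
The Ins1 window held 1 match and the Gcg window 2, so the letters occurred upstream of genes with opposite differences. Of 14264 windows of tested genes 10.2% held the motif, of the windows of genes at least 2-fold higher in β-cells 13.3%, and of those at least 2-fold lower 12.5%. A homeodomain motif of the insulin genes, CTAATG, was in 4.30%, 5.70% and 4.64% of the same windows, and the MAF-binding letters TGCTGAC in 3.04%, 4.65% and 3.57%. Neither matched a window of the respective list of insulin genes or β-cell markers (2 and 18 windows).

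**Figure D2:**
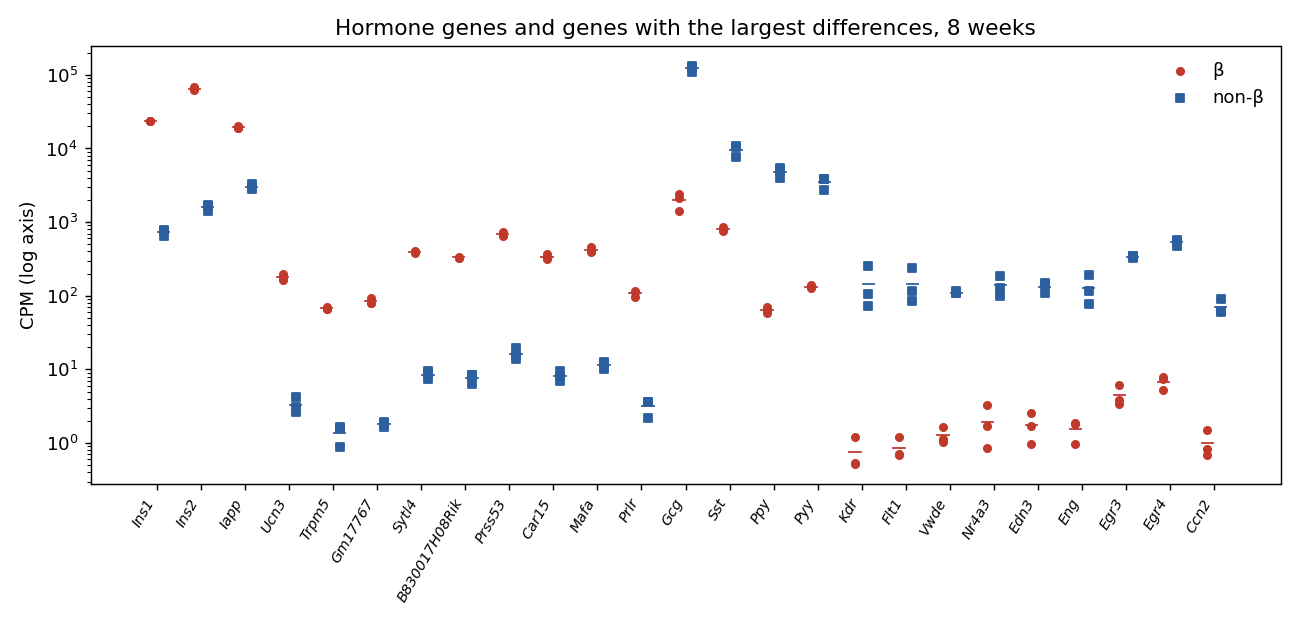
CPM on a log axis of the hormone genes and of the 10 genes with the largest called difference in each direction, with 1 point per library at 8 weeks and a bar at each group's mean. The 10 genes in each direction were picked among those whose β and non-β libraries did not overlap, so their separation follows from the rule. The libraries are also separate for the hormone genes, and the non-β libraries are spread widest for Kdr, Flt1 and Eng.

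By size, the 10 leading genes toward β-cells were Ucn3, Trpm5, Gm17767, Sytl4, B830017H08Rik, Prss53, Car15, Ins2, Mafa and Prlr, among genes with a mean log2 CPM of at least 3. Ucn3 (chromosome 13, 3940688 to 3945349), which encodes the urocortin 3 that β-cells release to act on δ-cells, had 173, 199.5 and 162 CPM in β and 3.07, 2.62 and 4.21 in non-β libraries, a log2 difference of 5.73 (SE 0.24, adjusted p 1.47e-09). Trpm5 (chromosome 7, 143069153 to 143094642), a calcium-activated cation channel, had 65.7, 70.2 and 66.4 against 1.60, 0.896 and 1.64 CPM (5.56, SE 0.43, adjusted p 3.23e-07). Sytl4 (chromosome X, 133936385 to 133981812), which encodes the granule-docking protein granuphilin, had 377, 388 and 406 against 9.44, 7.40 and 8.53 CPM (5.50, SE 0.21, adjusted p 6.75e-10). All 3 were tight among β libraries, and a lack of overlap with the non-β libraries was a condition for being listed.

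Prlr, the receptor for prolactin and placental lactogen, had 96.5, 111 and 117 CPM in β and 3.64, 3.66 and 2.16 in non-β libraries (5.14, SE 0.47, adjusted p 1.48e-06). The lincRNA Gm17767 had 79.9, 80.3 and 93.6 against 1.82, 1.94 and 1.64 CPM (5.54, SE 0.37, adjusted p 1.00e-07). Prss53 encodes a serine protease and Car15 a carbonic anhydrase. Prss53 had 685 ± 46.4 CPM in β and 16.4 ± 2.98 in non-β libraries (5.42, SE 0.15, adjusted p 6.23e-11), and Car15 had 336 ± 24.6 and 8.12 ± 1.35 (5.36, SE 0.20, adjusted p 5.53e-10). B830017H08Rik ends at base 17835008 on chromosome 16, next to Car15, which runs from 17835276 to 17838364 on the other strand, and had 331 ± 5.02 and 7.68 ± 1.09 CPM (5.44, SE 0.21, adjusted p 6.75e-10). Prss53 and Car15 each overlap another tested gene on the same strand (Gm21974 and Gm20518), and how reads were divided there is not known.

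Toward non-β-cells the 10 leading genes were Kdr, Flt1, Vwde, Nr4a3, Edn3, Eng, Egr3, Egr4, Ppy and Ccn2. They fall into endothelial genes, immediate early genes and others. Kdr (chromosome 5, 75932827 to 75978458) and Flt1 (chromosome 5, 147561604 to 147726011), the receptors for vascular endothelial growth factor, were near the floor in β-cells. Kdr had 1.20, 0.528 and 0.521 CPM in β and 252, 73.4 and 106 in non-β libraries (-7.51, SE 1.39, adjusted p 0.000619). Flt1 had 1.20, 0.716 and 0.682 against 236, 86.1 and 117 CPM (-7.32, SE 1.03, adjusted p 7.24e-05), and non-β replicate 1 was above the other non-β libraries in both. Eng, the endothelial TGF-β co-receptor endoglin, showed the same order, with 189.5, 76.7 and 117 CPM in non-β-cells and 1.85, 1.81 and 0.963 in β-cells (-6.34, SE 0.69, adjusted p 8.14e-06).

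Vwde (chromosome 6, 13156299 to 13224965), which encodes a protein with von Willebrand factor D and EGF domains, was by contrast even among non-β libraries, at 108, 108 and 114 CPM, and at 1.67, 1.13 and 1.04 in β-cells (-6.46, SE 0.31, adjusted p 3.55e-09). Edn3, the peptide endothelin 3, had 1.71, 0.980 and 2.53 CPM in β and 109.7, 143 and 147 in non-β libraries (-6.35, SE 0.36, adjusted p 2.00e-08). Ccn2, which encodes the matrix-associated growth factor CTGF, had 0.694, 0.829 and 1.52 against 89.6, 59.6 and 61.3 CPM (-6.14, SE 0.77, adjusted p 2.60e-05). Vwde, Edn3 and Ppy did not follow the library order of the endothelial genes, while Ccn2 was also highest in non-β replicate 1.

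By counts, which are not corrected for gene length, the 5 leading genes were Ins2, Ins1, Iapp, mt-Co1 and Eef1a1 in β and Gcg, Sst, Pcsk2, Eef1a1 and mt-Co1 in non-β libraries. The mitochondrial cytochrome oxidase gene mt-Co1 was at 9732 ± 1478 CPM in β and 5029 ± 518 in non-β libraries (0.95, SE 0.12, adjusted p 4.14e-05). The translation factor Eef1a1 had 6754, 7027 and 6876 CPM in β and 5022, 6361 and 6686 in non-β libraries and did not pass the test (0.20, SE 0.15, adjusted p 0.279).

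**Figure D3:**
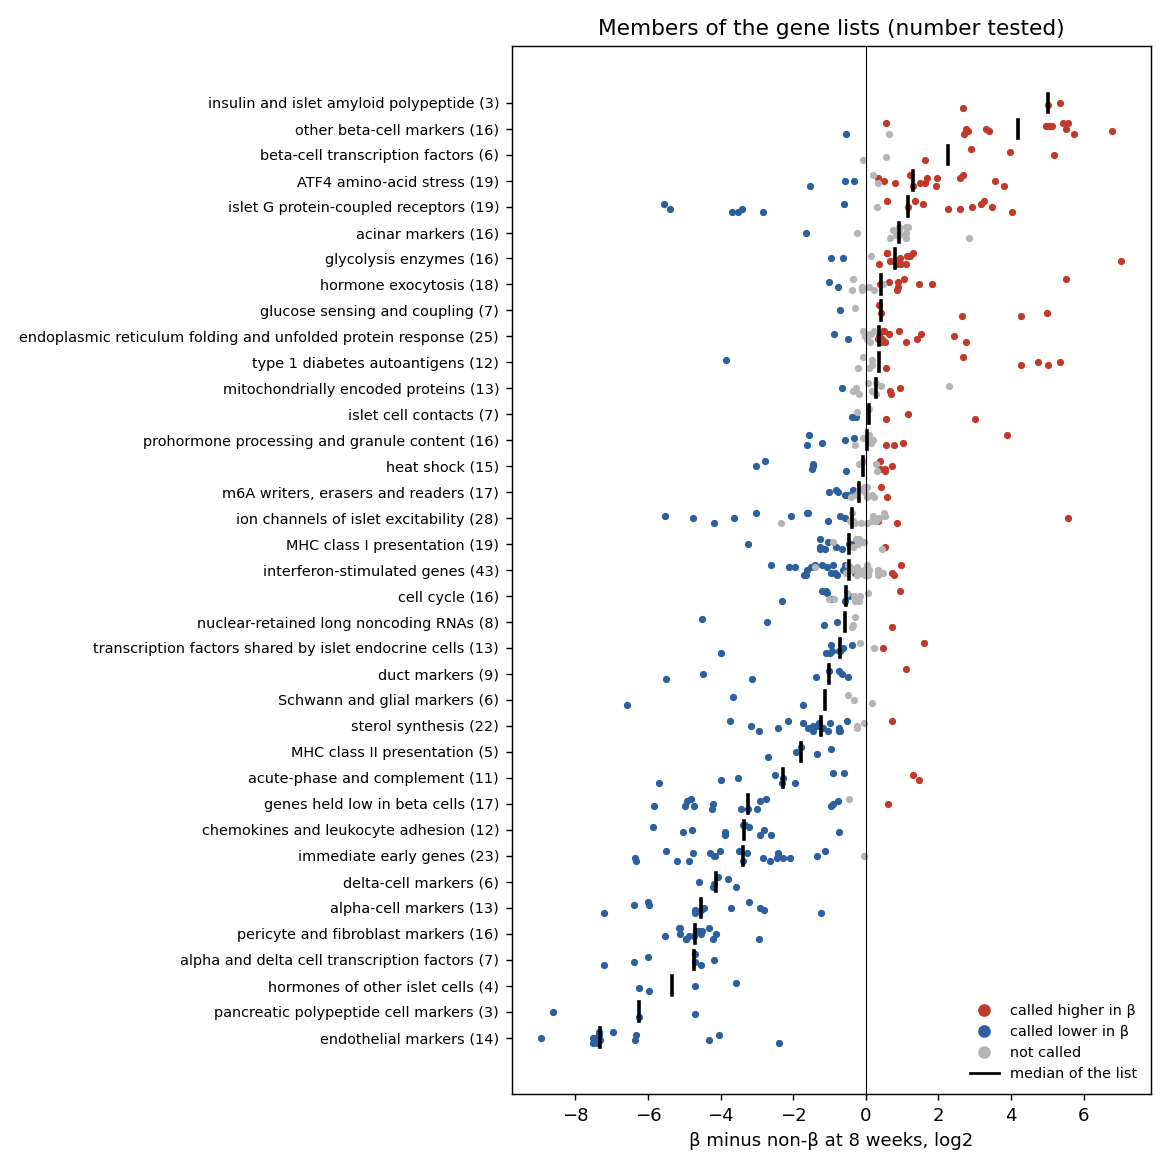
Log2 difference of β minus non-β at 8 weeks (x axis) for each tested member of the 37 gene lists with at least 3 members tested (y axis, number tested in brackets), coloured by the call, with a bar at the list's median. Medians run from -7.33 for endothelial markers to 5.02 for insulin and islet amyloid polypeptide, and the median of all tested genes is 0.014.

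Transcription factors that define islet cell types separated with the sort. Of 6 β-cell factors 4 were higher in β-cells and 2 were not called, with a median log2 difference of 2.27. That is a share called of 66.7%, against 49.2% of all genes. Mafa, an activator of the insulin genes, had 407, 457 and 395 CPM in β and 10.2, 12.0 and 12.6 in non-β libraries (5.19, SE 0.15, adjusted p 7.25e-11). Mnx1, needed for β-cell fate, had 11.7, 13.4 and 11.8 against 0.909, 0.971 and 0.514 CPM (3.97, SE 0.58, adjusted p 9.83e-05). Nkx6-1, which represses the α-cell programme, had 299, 321 and 277 against 36.9, 45.5 and 38.5 CPM (2.91, SE 0.12, adjusted p 8.71e-10). Pdx1, which also acts in δ-cells, had the smallest called gap of the list, with 90.5, 99.2 and 84.5 CPM in β and 26.7, 34.7 and 28.9 in non-β libraries (1.63, SE 0.12, adjusted p 1.78e-07).

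All 7 factors listed for α- and δ-cells were lower in β-cells, with a median of -4.72, against 25.6% of all genes lower. The α-cell factors Pou3f4 and Irx1 had 0.443 ± 0.361 and 1.29 ± 0.310 CPM in β against 29.8 ± 3.20 and 81.9 ± 14 in non-β libraries (-6.38 and -5.99, adjusted p 3.07e-06 and 5.00e-08). Etv1 was at 7.57 ± 0.135 against 200.5 ± 23.1 CPM (-4.72, SE 0.22, adjusted p 2.66e-09). Hhex, the δ-cell factor, had 2.64, 1.85 and 2.41 against 43.9, 43.0 and 37.5 CPM (-4.19, SE 0.28, adjusted p 8.46e-08), and the ghrelin receptor gene Ghsr, a δ-cell marker, had 0.740, 1.62 and 0.963 against 23.2, 19.3 and 17.9 (-4.20, SE 0.38, adjusted p 1.28e-06).

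Of 13 factors shared by islet endocrine cells 2 were higher and 9 lower in β-cells, with a median of -0.72. That is a share called of 84.6%, against 49.2% of all genes. Only 1 of the 13 factors was still called higher without β replicate 1, β replicate 2 or non-β replicate 1. Insm1, a zinc-finger factor of endocrine differentiation, was higher, with 530.5, 544 and 504 CPM in β and 170.2, 180.3 and 168 in non-β libraries (1.61, SE 0.087, adjusted p 1.31e-08). Isl1, a LIM-homeodomain factor, was lower at 68.2, 67.1 and 73.9 against 142, 157 and 151 CPM (-1.11, SE 0.092, adjusted p 6.81e-07). Foxa1 had the largest gap of the list, with 0.278, 0.113 and 0.762 CPM in β and 5.76, 3.51 and 5.04 in non-β libraries (-3.98, SE 0.71, adjusted p 0.000486), at low levels.

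Of 16 genes of hormone processing and granule content 4 were higher, 5 lower and 7 not called, with a median of 0.044 and a share called of 56.2%, near the 49.2% of all tested genes. The prohormone convertase genes went in opposite directions. Pcsk1, which makes the first cut in proinsulin, had 328, 336 and 357 CPM in β and 22.9, 24.3 and 21.6 in non-β libraries (3.90, SE 0.11, adjusted p 6.23e-11). Pcsk2, which α-cells use to make glucagon, had 2914, 3103 and 2882 against 5467, 7507 and 7704 CPM (-1.20, SE 0.13, adjusted p 6.96e-06). Pcsk1n, which encodes an inhibitor of Pcsk1, was lower in β-cells at 610.0 ± 44.9 against 1890 ± 303 CPM (-1.62, SE 0.16, adjusted p 3.82e-06), as was the granule gene Resp18 (-1.57, SE 0.18, adjusted p 9.85e-06). Chromogranin A (Chga) and secretogranin 2 (Scg2), matrix proteins of the granule, were higher by 0.56 (SE 0.13, adjusted p 0.00363) and 0.78 (SE 0.10, adjusted p 2.98e-05).

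Of 18 exocytosis genes 9 were higher, 2 lower and 7 not called, a share called of 61.1% against 49.2% of all genes. Besides Sytl4, the calcium sensor Doc2b had 14.3, 14.6 and 14.3 CPM in β and 4.98, 3.14 and 3.80 in non-β libraries (1.82, SE 0.22, adjusted p 2.13e-05), and the synaptotagmin Syt4 had 470.1 ± 28.1 against 172 ± 25.8 (1.46, SE 0.12, adjusted p 6.66e-07). The t-SNARE gene Stx1a was lower in β-cells, with 25.1, 30.4 and 25.7 against 54.3, 59.3 and 50.6 CPM (-1.01, SE 0.13, adjusted p 2.92e-05). The gap junction gene Gjd2, which encodes the connexin that couples β-cells, had 113, 118 and 117 CPM in β and 14.1, 16.1 and 13.6 in non-β libraries (3.01, SE 0.14, adjusted p 4.41e-09). Of the list of 7 contact genes 3 were higher and 2 lower, a share called of 71.4% against 49.2% of all genes. The count of lower contact genes was 0 without β replicate 1 and 1 without β replicate 2, non-β replicate 2 or non-β replicate 3.

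Genes of glucose sensing were higher in β-cells in 5 of 7 cases, with 1 lower. The share called was 85.7%, against 49.2% of all genes. The glucose transporter gene Slc2a2 had 80.0, 81.5 and 76.1 CPM in β and 3.03, 1.87 and 2.31 in non-β libraries (4.99, SE 0.30, adjusted p 3.04e-08). G6pc2, the islet glucose-6-phosphatase, had 939.6, 1002 and 998 against 48.9, 47.8 and 56.0 CPM (4.27, SE 0.10, adjusted p 2.60e-11), and Pcx, pyruvate carboxylase, 129, 131 and 117 against 15.5, 22.3 and 24.1 (2.65, SE 0.17, adjusted p 4.65e-08). Without β replicate 2, 3 of the 7 genes stayed called as higher. Glud1, glutamate dehydrogenase, was lower in β-cells at 161 ± 1.10 against 265 ± 10.2 CPM (-0.72, SE 0.094, adjusted p 3.69e-05).

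Glycolysis enzymes were mostly higher, with 13 of 16 higher, 2 lower and a median of 0.814. Their share called was 93.8%, against 49.2% of all genes. The enolase gene Eno2, for example, had 445, 437 and 439 CPM in β and 168, 196 and 177 in non-β libraries (1.29, SE 0.088, adjusted p 1.09e-07). Among 17 genes known to be held low in mature β-cells, 15 were lower, 1 higher and 1 not called, with a median of -3.24. The share called in this list was 94.1%, against 49.2% of all genes. The 1 higher gene was Cat, the catalase gene, at 20.67, 18.92 and 17.29 against 13.98, 13.82 and 9.916 CPM (0.61, SE 0.18, adjusted p 0.0121), which was not called without non-β replicate 3 (0.43, adjusted p 0.0728). Hk1, the high-affinity hexokinase, had 1.94, 3.47 and 3.09 CPM in β and 75.7, 70.5 and 91.9 in non-β libraries (-4.80, SE 0.27, adjusted p 1.74e-08). Zfp36l1, which encodes an mRNA-decay factor, had 0.740, 3.05 and 3.13 against 87.9, 47.4 and 60.9 CPM (-4.97, SE 0.59, adjusted p 1.57e-05). Ldha, lactate dehydrogenase A, was closer between the fractions, with 86.9, 67.5 and 93.6 CPM in β and 140.2, 138 and 201 in non-β libraries (-0.94, SE 0.25, adjusted p 0.00771). The Ldha call was not kept by edgeR (adjusted p 0.0562) or DESeq2 (0.0972).

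Receptors of the islet differed in 18 of 19 tested genes, 11 higher and 7 lower in β-cells, with a median of 1.16. That is a share called of 94.7%, against 49.2% of all genes. The incretin receptor Glp1r had 658, 661 and 648 CPM in β and 43.5, 40.5 and 36.4 in non-β libraries (4.03, SE 0.14, adjusted p 3.39e-10). The muscarinic receptor Chrm3 had 59.1, 63.7 and 67.9 against 5.19, 5.90 and 6.06 CPM (3.48, SE 0.28, adjusted p 4.32e-07), and the glucagon receptor Gcgr 38.7, 38.1 and 35.9 against 3.81, 5.45 and 3.85 (3.16, SE 0.19, adjusted p 3.33e-08). So receptors for acetylcholine, GLP-1 and glucagon were on the β side. The somatostatin receptors Sstr2 and Sstr1 were on the other, with 1.80, 0.528 and 0.642 CPM of Sstr2 in β and 28.6, 37.4 and 42.3 in non-β libraries (-5.40, SE 0.49, adjusted p 1.50e-06). Sstr1 had 0.509, 0.301 and 0.521 against 5.50, 5.16 and 4.67 CPM (-3.53, SE 0.62, adjusted p 0.000408).

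Ion channel genes were called in 14 of 28 cases, close to the share of all genes, with 3 higher, 11 lower and a median of -0.37. Kcnj3, a G protein-gated potassium channel, had 1.02, 0.226 and 0.441 CPM in β and 25.9, 19.5 and 19.8 in non-β libraries (-5.54, SE 0.57, adjusted p 4.52e-06). The background potassium channel Kcnk3 had 4.30, 2.30 and 3.65 against 75.7, 92.6 and 101 CPM (-4.77, SE 0.25, adjusted p 9.36e-09), the T-type calcium channel Cacna1h 2.53 ± 0.744 against 46.5 ± 7.27 (-4.19, SE 0.32, adjusted p 3.01e-07) and the sodium channel Scn3a 4.46 ± 0.439 against 55.3 ± 8.63 (-3.62, SE 0.37, adjusted p 4.86e-06). The subunits of the ATP-sensitive potassium channel did not pass the test. Kcnj11, its pore, had 225, 234 and 210.1 CPM in β and 169.8, 208 and 210.3 in non-β libraries, a difference of 0.19 (SE 0.11, adjusted p 0.15). Abcc8, its sulfonylurea receptor, had 1113, 1147 and 1044 against 1384, 1420 and 1272 CPM (-0.30, SE 0.12, adjusted p 0.051), and did pass in 7 of the alternatives, by DESeq2 with an adjusted p of 0.0136.

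Genes whose products are targets of autoimmunity in type 1 diabetes were higher in β-cells in 6 of 12 cases and lower in 1, with a median of 0.368 and a share called of 58.3%, near that of all genes (49.2%). Gad1, which encodes the larger glutamate decarboxylase, had 136, 145 and 139 CPM in β and 5.84, 5.53 and 4.42 in non-β libraries (4.74, SE 0.18, adjusted p 7.02e-10), while Gad2 was near the limit of detection at 0.185, 0 and 0.241 against 1.21, 1.12 and 1.75 CPM and passed the test toward non-β-cells (adjusted p 0.0105). The autoantigens IA-2 (Ptprn) and zinc transporter 8 (Slc30a8) were not called, with 1541 ± 61.9 and 125 ± 7.57 CPM in β and 1370 ± 130.1 and 119 ± 14.3 in non-β libraries (0.17 and 0.076, adjusted p 0.147 and 0.693).

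Of 25 genes of endoplasmic reticulum folding and the unfolded protein response 14 were higher in β-cells, 2 lower and 9 not called, with a median of 0.37. Their share called was 64%, against 49.2% of all genes. Ero1lb, an oxidase that helps form disulfide bonds in proinsulin, had 823, 862 and 825 CPM in β and 124, 121 and 123 in non-β libraries (2.77, SE 0.085, adjusted p 1.28e-10). Edem1, of ER-associated degradation, had 238, 239.6 and 236 against 44.9, 39.9 and 47.0 CPM (2.43, SE 0.10, adjusted p 8.45e-10), and Wfs1, the Wolfram syndrome gene, 258 ± 6.37 against 89.9 ± 9.00 (1.53, SE 0.13, adjusted p 8.33e-07). The sensor kinase PERK (Eif2ak3) and Herpud1 were lower, with differences of -0.88 (SE 0.12, adjusted p 6.46e-05) and -0.50 (SE 0.10, adjusted p 0.00116). The chaperone BiP (Hspa5) had 2055, 2057 and 2139 CPM in β and 2061, 1966 and 2223 in non-β libraries, and the libraries overlapped (adjusted p 0.99).

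Genes that the transcription factor ATF4 induces when amino acids are short or the ER is stressed were higher in β-cells in 14 of 19 cases and lower in 3. The median was 1.30 and the share called 89.5%, against 49.2% of all genes. Aldh1l2, a mitochondrial folate enzyme, had 212, 209.7 and 215 CPM in β and 17.6, 16.1 and 12.5 in non-β libraries (3.79, SE 0.29, adjusted p 2.66e-07). Trib3, a pseudokinase that restrains ATF4 signalling, had 358, 400.5 and 363 against 32.5, 30.0 and 32.5 CPM (3.55, SE 0.13, adjusted p 6.05e-10), and the factor Atf5 920.5, 1033 and 849.6 against 134, 164 and 168 (2.59, SE 0.12, adjusted p 3.01e-09). Nupr1, a stress-induced chromatin protein, had 295, 273 and 247 CPM in β and 71.1, 32.3 and 30.9 in non-β libraries (2.67, SE 0.28, adjusted p 6.14e-06), with non-β replicate 1 above the other non-β libraries. Chac1, which degrades glutathione, had 83.9, 84.8 and 78.6 against 30.8, 32.8 and 37.2 CPM (1.30, SE 0.11, adjusted p 9.50e-07). The cystine transporter Slc7a11 and the mTORC1 inhibitor Ddit4 were lower in β-cells, with differences of -1.54 (adjusted p 0.00176) and -0.59 (adjusted p 0.00117). The third lower member was Atf4 itself, against the direction of most of its list, with 739, 753 and 688 CPM in β and 889, 869 and 981 in non-β libraries (-0.33, SE 0.13, adjusted p 0.0479). The Atf4 call was close to the threshold and was lost by edgeR (adjusted p 0.0553) and when any of the 6 libraries was left out (0.0643 to 0.143), and it concerns the transcript, not the protein.

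The promoters of Chac1 and Nupr1 are shown because they hold a core of the ATF4 site, TTGCATCA on either strand, in capitals. They are the 250 bases before the start at chr2:119350992-119351241 (plus strand) and chr7:126625471-126625720 (minus strand) of GRCm38.p6.
Chac1: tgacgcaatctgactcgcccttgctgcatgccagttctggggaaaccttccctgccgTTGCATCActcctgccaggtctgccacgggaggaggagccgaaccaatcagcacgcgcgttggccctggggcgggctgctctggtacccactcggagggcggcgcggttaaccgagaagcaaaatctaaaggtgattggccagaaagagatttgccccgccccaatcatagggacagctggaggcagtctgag
Nupr1: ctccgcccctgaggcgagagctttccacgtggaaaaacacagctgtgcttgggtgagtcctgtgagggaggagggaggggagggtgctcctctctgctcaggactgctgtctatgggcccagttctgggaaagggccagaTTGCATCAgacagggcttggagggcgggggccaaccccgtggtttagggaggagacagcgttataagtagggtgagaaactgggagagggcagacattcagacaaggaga
The letters were in 4 of 20 windows of the ATF4 list (20%), those of Chac1, Nupr1, Slc7a11 and Vldlr, against 0.561% of all windows. They were in 1.80% of windows of genes at least 2-fold higher in β-cells and in 0.616% of those at least 2-fold lower. The 4 genes with a match did not share a direction, since Slc7a11 was lower in β-cells.

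Heat shock genes, a list of cytosolic chaperones with the mitochondrial chaperonins Hspd1 and Hspe1, were mixed at 8 weeks, with 5 of 15 higher, 6 lower and a median of -0.086. Their share called was 73.3%, against 49.2% of all genes. Dnajb1, a co-chaperone of HSP70, had 126, 104 and 120.2 CPM in β and 743, 795 and 843 in non-β libraries (-2.77, SE 0.13, adjusted p 2.77e-09). The HSP70 genes Hspa1a and Hspa1b, near-identical copies whose shared reads may be divided, were both lower. Hspa1a had 236, 191 and 247 CPM in β and 581, 576 and 667 in non-β libraries (-1.44, SE 0.17, adjusted p 1.55e-05), and Hspa1b 270.4, 204 and 257 against 610.3, 637 and 745 (-1.45, SE 0.24, adjusted p 0.00029). The small heat shock genes Hspb1 and Cryab were lower, with differences of -1.49 and -3.03 (adjusted p 5.67e-05 and 4.34e-05). Of the chaperonins, Hspd1 was higher, at 345 ± 9.96 against 210.2 ± 11.3 CPM (0.71, SE 0.11, adjusted p 0.000135). The letters TTCNNGAA of a heat shock element were in 25% of the 16 promoter windows of the list and in 5.76% of all windows. The matches in the list were in windows of Hspd1, Hspe1 and Hsph1, and Hspd1 and Hspe1 overlap on opposite strands.

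Immediate early genes, which are transcribed within minutes of a stimulus, were lower in β-cells in 22 of 23 cases and higher in none. The median was -3.38 and the share called 95.7%, against 49.2% of all genes. The summed level of the list was 3870, 3290 and 3220 CPM in the β libraries and 26500, 30900 and 29400 in the non-β libraries. The zinc-finger factor Egr3 had 6.15, 3.84 and 3.37 CPM in β and 347, 329 and 344 in non-β libraries (-6.32, SE 0.36, adjusted p 2.15e-08), and Egr4 7.91, 5.24 and 7.34 against 467, 553 and 581 (-6.32, SE 0.22, adjusted p 3.39e-10). The related Egr2 had 2.64, 1.36 and 1.84 against 75.2, 85.0 and 93.9 CPM (-5.51, SE 0.31, adjusted p 1.74e-08).

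The orphan nuclear receptor gene Nr4a3 (chromosome 4, 48045153 to 48086447) had 3.24, 0.867 and 1.69 CPM in β and 187, 101 and 127 in non-β libraries (-6.37, SE 0.69, adjusted p 7.60e-06). Its relative Nr4a2 had 12.0, 7.84 and 9.59 against 452, 288 and 327 CPM (-5.19, SE 0.28, adjusted p 1.32e-08), and both were highest in non-β replicate 1. Fos, a subunit of the AP-1 factor, had a smaller gap with 622, 526 and 514 against 1936, 2925 and 2213 CPM (-2.08, SE 0.14, adjusted p 1.19e-07). Dispersal and sorting are known to induce such genes in many cells, and both fractions passed through the same steps, whose part in the difference was not tested. The cAMP response element TGACGTCA was in 12% of the 25 promoter windows of the list, those of Btg2, Dusp1 and Maff, and in 2.54% of all windows.

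Genes of sterol synthesis and uptake were lower in β-cells in 18 of 22 cases and higher in 1, with a median of -1.24. The share called was 86.4%, against 49.2% of all genes. The summed level of the list was 2080, 2100 and 2000 CPM in β libraries against 5750, 4630 and 5180 in non-β libraries. Idi1, an isoprenoid isomerase, had 31.9, 28.6 and 31.4 CPM in β and 509, 359.9 and 378 in non-β libraries (-3.75, SE 0.16, adjusted p 1.41e-09). Hmgcs1, the synthase before the rate-limiting step, had 80.0, 68.2 and 63.3 against 802, 507 and 616 CPM (-3.17, SE 0.16, adjusted p 7.12e-09). Insig1, which holds the sterol sensor in the ER, had 88.4, 85.4 and 86.3 against 751, 567 and 694 CPM (-2.94, SE 0.11, adjusted p 5.96e-10). Sqle, squalene epoxidase, was the exception, with 315, 317 and 288 CPM in β and 190.5, 171 and 191 in non-β libraries (0.74, SE 0.09, adjusted p 2.11e-05).

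The Hmgcs1 promoter is shown for the letters of a sterol response element, TCACNCCAC on either strand, in capitals (chr13:119690101-119690350, plus strand, GRCm38.p6).
Hmgcs1: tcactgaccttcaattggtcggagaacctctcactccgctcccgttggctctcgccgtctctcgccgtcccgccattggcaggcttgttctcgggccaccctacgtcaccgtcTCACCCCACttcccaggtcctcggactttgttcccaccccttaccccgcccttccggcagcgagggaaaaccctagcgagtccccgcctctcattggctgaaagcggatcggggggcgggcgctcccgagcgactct
It was the 1 window of 16 in the list that held these letters (6.25%, against 0.939% of all windows).

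Among immune genes, more list members were lower than higher in β-cells at 8 weeks. Of 43 interferon-stimulated genes 3 were higher, 19 lower and 21 not called, a share called of 51.2%, near the 49.2% of all genes, with a median of -0.468. By edgeR 2 were higher and 13 lower, and by DESeq2 2 were higher and 15 lower. Irf1, the interferon-induced transcription factor, had 71.9, 75.4 and 69.4 CPM in β and 424, 438 and 459.7 in non-β libraries (-2.61, SE 0.10, adjusted p 6.21e-10). Irf7 had 13.6, 8.25 and 7.02 against 36.1, 24.6 and 28.2 CPM (-1.71, SE 0.23, adjusted p 4.69e-05), and Isg15, a ubiquitin-like modifier, 0.925, 0.339 and 0.883 against 2.94, 2.91 and 2.62 (-2.12, SE 0.48, adjusted p 0.0026). Rsad2, which encodes the antiviral enzyme viperin, had 19.9, 4.79 and 3.13 against 35.3, 18.3 and 21.4 CPM, with β replicate 1 inside the non-β range (-1.96, SE 0.48, adjusted p 0.00441, and an adjusted p of 0.0568 by edgeR). Without that library the Rsad2 difference was -2.65. β replicate 1 also had the highest Irf7 of the β libraries, and the summed level of the 43 genes was 975, 906 and 899 CPM in β libraries and 1580, 1450 and 1430 in non-β libraries.

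The 3 genes higher in β-cells were Mx1, Oasl2 and Ifi27. The GTPase Mx1 had 4.72, 4.86 and 3.81 against 3.38, 2.76 and 1.18 CPM (0.97, SE 0.36, adjusted p 0.0388), and its call was lost by edgeR (adjusted p 0.108) and DESeq2 (0.0939). It was also lost without β replicate 1, β replicate 2, non-β replicate 2 or non-β replicate 3, with a difference of 0.49 (adjusted p 0.225) without the last of these. Oasl2, of the oligoadenylate synthetase family, had 23.2, 13.3 and 15.7 against 11.0, 9.04 and 9.14 CPM (0.76, SE 0.21, adjusted p 0.00846), and Ifi27 39.1, 47.2 and 47.9 against 26.3, 30.6 and 25.5 (0.72, SE 0.21, adjusted p 0.0128).

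The promoters of Isg15 and Rsad2 are shown for the letters of an interferon response element, GAAANNGAA on either strand, in capitals. They lie at chr4:156200819-156201068 and chr12:26456453-26456702 (both minus strand, GRCm38.p6).
Isg15: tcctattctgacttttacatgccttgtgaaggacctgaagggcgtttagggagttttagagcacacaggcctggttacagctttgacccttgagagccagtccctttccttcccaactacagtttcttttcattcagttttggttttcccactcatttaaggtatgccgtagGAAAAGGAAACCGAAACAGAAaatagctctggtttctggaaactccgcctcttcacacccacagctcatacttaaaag
Rsad2: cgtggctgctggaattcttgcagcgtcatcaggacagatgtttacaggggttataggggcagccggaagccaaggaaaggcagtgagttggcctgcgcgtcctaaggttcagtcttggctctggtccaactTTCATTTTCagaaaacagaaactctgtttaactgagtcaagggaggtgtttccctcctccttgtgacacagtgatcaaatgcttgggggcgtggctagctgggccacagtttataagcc
The Isg15 window held 3 overlapping matches and the Rsad2 window 1. Of 36 windows of the list 17 held a match (47.2%), against 6.02% of all windows, 5.89% of those of genes at least 2-fold higher in β-cells and 7.68% of those at least 2-fold lower.

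Of 19 genes of MHC class I presentation 10 were lower, 1 higher and 8 not called, with a median of -0.458. The share called was 57.9%, against 49.2% of all genes, of which 25.6% were lower and 23.6% higher. B2m, the light chain, had 195, 204 and 202 CPM in β and 467, 436 and 537 in non-β libraries (-1.26, SE 0.14, adjusted p 1.02e-05). The heavy chain H2-K1 had 187, 201 and 205 CPM in β and 435, 400.0 and 395 in non-β libraries (-1.05, SE 0.14, adjusted p 3.74e-05), and H2-D1 867, 951 and 934 against 1132, 1325 and 1329 (-0.46, SE 0.12, adjusted p 0.0082). The nonclassical H2-Q7 and H2-T23 were lower, with differences of -3.24 and -1.27 (adjusted p 1.29e-08 and 4.48e-06), and reads may be divided among the similar H2 genes, whose NOD alleles differ from the reference. Erap1, the peptide-trimming aminopeptidase, was the 1 member higher in β-cells (2 without non-β replicate 2), at 147 ± 13.2 against 102 ± 4.17 CPM (0.53, SE 0.10, adjusted p 0.000814).

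All 5 tested MHC class II genes and all 12 tested chemokine and adhesion genes were lower in β-cells, with medians of -1.79 and -3.35. Of all tested genes 49.2% were called, 25.6% as lower. The class II count was 2 by edgeR and 3 by DESeq2. Cd74, the class II invariant chain, had 8.46, 7.39 and 8.22 CPM in β and 54.7, 44.8 and 56.8 in non-β libraries (-2.71, SE 0.14, adjusted p 1.13e-08). Cxcl10, the interferon-induced T-cell chemokine, had 8.93, 5.58 and 6.42 against 67.9, 75.8 and 60.3 CPM (-3.32, SE 0.18, adjusted p 1.06e-08), and the neutrophil chemokine Cxcl2 0.416, 0.791 and 1.69 against 20.7, 25.6 and 26.4 (-4.78, SE 0.43, adjusted p 1.48e-06). Vcam1, an adhesion molecule of activated endothelium and stroma, had 0.370, 0.528 and 2.01 against 28.4, 20.2 and 26.9 CPM (-5.04, SE 0.66, adjusted p 3.84e-05). Of 11 acute-phase and complement genes 9 were lower and 2 higher, with a median of -2.28. Complement C3 had 19.1, 13.4 and 18.9 CPM in β and 196, 161 and 232 in non-β libraries (-3.53, SE 0.18, adjusted p 8.65e-09), and C4b 7.54 ± 1.55 against 42.2 ± 11.3 (-2.49, SE 0.22, adjusted p 1.37e-06). The fibrinogen chains Fga and Fgg were higher in β-cells, at 24.4 ± 2.16 and 71.5 ± 4.23 CPM against 8.65 ± 1.73 and 28.8 ± 0.399 (1.46 and 1.31, adjusted p 0.000178 and 4.22e-07). The remaining fibrinogen chain, Fgb, went the other way, with 24.6, 30.4 and 38.6 CPM in β and 137, 146 and 169.9 in non-β libraries (-2.29, SE 0.17, adjusted p 3.01e-07).

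Genes that write, erase or read the RNA mark m6A were called about as often as all genes. Of 17 tested 2 were higher and 6 lower, a share of 47.1%, with a median of -0.20. The methyltransferase Mettl3 had 32.0, 29.4 and 31.2 CPM in β and 26.4, 25.6 and 30.2 in non-β libraries (0.17, SE 0.13, adjusted p 0.294), and its partner Mettl14 7.82, 8.63 and 8.18 against 14.2, 8.37 and 9.61 (-0.40, SE 0.21, adjusted p 0.125), with overlapping libraries in both. The demethylase Alkbh5 was higher, at 279, 279 and 312 against 188, 201 and 191 CPM (0.58, SE 0.14, adjusted p 0.00324). Of 8 nuclear-retained RNAs 4 were lower and 1 higher, a share called of 62.5% against 49.2% of all genes. Malat1 was at 358, 357 and 509.9 CPM in β and 852, 924 and 918 in non-β libraries (-1.16, SE 0.34, adjusted p 0.0129). Neat1, the paraspeckle RNA, was at 466, 432 and 509.7 against 376, 280.4 and 211 CPM (0.73, SE 0.18, adjusted p 0.00471). Of 13 mitochondrially encoded genes 3 were higher and 1 lower, and of 16 cell cycle genes 1 was higher and 7 lower, with medians of 0.269 and -0.55. The shares called were 30.8% and 50%, below and near the 49.2% of all genes. Left-out libraries moved several of these small counts. The higher m6A genes numbered 1 without β replicate 3, and the lower nuclear RNAs 2 without any 1 of the 3 β libraries or non-β replicate 1. The lower mitochondrial genes numbered 2 without β replicate 3 or non-β replicate 1, the higher cell cycle genes 0 without non-β replicate 1, and the lower cell cycle genes 4 without β replicate 1.

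Marker lists of the other endocrine cells, endothelial cells, pericytes and fibroblasts were lower in β-cells. A smaller share of the Schwann and acinar markers was called. Over all tested genes the share called was 49.2%, with 25.6% lower and 23.6% higher. The part of other cells in the differences above was not tested. All 13 α-cell, 6 δ-cell and 3 PP-cell markers were lower in β-cells, with medians of -4.54, -4.13 and -6.24, and 14 of 16 β-cell markers beyond insulin were higher, with a median of 4.18. The 1 member called lower, Shisal2b, had 17.0, 17.3 and 17.3 against 22.9, 25.9 and 26.7 CPM (-0.54, SE 0.21, adjusted p 0.0496), and lost its call when any of the 6 libraries was left out, with adjusted p-values from 0.063 to 0.126. All 14 tested endothelial markers were lower, with a median of -7.33, and their summed level was 17.3, 19.4 and 20.1 CPM in the β libraries and 1390, 532 and 776 in the non-β libraries. Cdh5, the VE-cadherin of endothelial junctions, had 0.324, 0.791 and 0.481 CPM in β and 162, 57.8 and 95.0 in non-β libraries (-7.52, SE 1.31, adjusted p 0.0004). Without non-β replicate 1, which held the most endothelial RNA, the β and non-β libraries differed in 6396 genes, with 2887 higher and 3509 lower.

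All 16 pericyte and fibroblast markers were also lower, with a summed level of 39.5, 35.5 and 70.7 CPM in β libraries and 920, 1160 and 1440 in non-β libraries. The pericyte genes Pdgfrb and Cspg4 had 1.93 ± 1.59 and 0.459 ± 0.233 CPM in β and 51.8 ± 10.3 and 20.6 ± 3.50 in non-β libraries (-5.11 and -5.53, adjusted p 0.00011 and 1.55e-05). Here non-β replicate 3, not 1, was highest in the summed level and in both genes named. Of 6 Schwann and glial markers 3 were lower and none higher, a share called of 50%, near the 49.2% of all genes. The summed level of that list was 180, 175 and 174 CPM in β libraries and 186, 186 and 197 in non-β libraries.

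Duct markers were lower in 8 of 9 cases, and the share called was 100%, against 49.2% of all genes. Sox9, for example, was at 0.806 ± 0.503 against 14.4 ± 2.12 CPM (-4.48, SE 0.51, adjusted p 1.21e-05). The keratin gene Krt7 was higher at 739.6 ± 38.3 against 343 ± 49.8 CPM (1.12, SE 0.15, adjusted p 5.28e-05). Acinar markers, most of which encode digestive enzymes of the surrounding pancreas, were called in 1 of 16 cases, as lower in β-cells. That is a share of 6.25%, against 49.2% of all genes. The summed level of the acinar list was 1250, 648 and 599 CPM in β libraries and 1080, 317 and 288 in non-β libraries, so that replicate 1 was highest in both fractions. Without non-β replicate 1 the acinar count became 13 higher in β-cells and 1 lower, and it was the same with sample quality weights, which give less weight to libraries that vary more. Of 20 leukocyte markers 2 were tested. The pan-leukocyte gene Ptprc, which encodes CD45, was at 0 in 5 of 6 libraries and at 0.130 CPM in non-β replicate 1. C1qa, a complement gene of macrophages, was lower in β-cells at 4.90, 4.41 and 4.45 against 22.1, 29.4 and 37.6 CPM (-2.65, SE 0.29, adjusted p 7.84e-06), but its partner C1qb did not exceed 0.103 CPM in any library. The B-cell gene Cd79a had 3.75, 3.24 and 3.77 CPM in β and 0.996, 0.822 and 0.360 in non-β libraries (2.36, SE 0.63, adjusted p 0.00698).

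**Figure D4:**
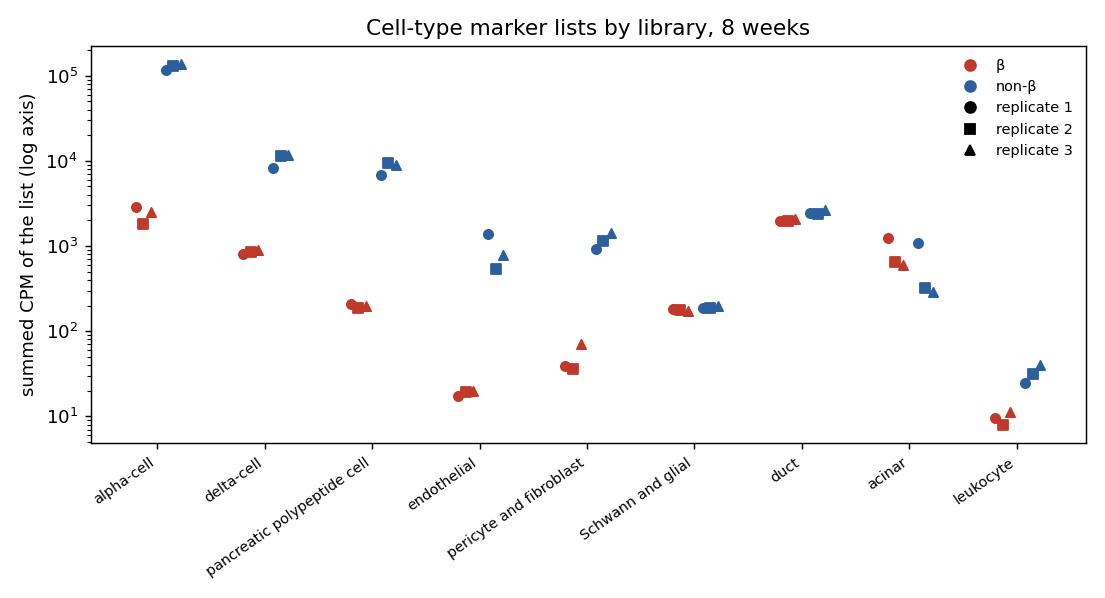
Summed CPM on a log axis of 9 lists of cell-type markers in each library at 8 weeks, with colour for the fraction and symbol for the replicate number. The endothelial sum is highest in non-β replicate 1 (1390 against 532 and 776 CPM), the pericyte and fibroblast sum in non-β replicate 3, and the acinar sum in replicate 1 of both fractions.

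The gap between the fractions was set against that at 4 weeks to see which differences were of another size at the earlier age. The interaction passed the test in 800 of 15598 genes (5.13%). It was called in 13 of 15 heat shock genes, 20 of 22 sterol genes, 10 of 23 immediate early genes and 9 of 19 ATF4 genes, and in none of the 17 m6A genes. Heat shock genes had a median gap of 1.66 at 4 weeks and -0.086 at 8 weeks. Hspa1b had a gap of 3.56 at 4 weeks and -1.45 at 8 weeks, an interaction of -5.00 (adjusted p 1.07e-05), and that of Dnajb1 was 0.26 and -2.77 (-3.03, adjusted p 2.55e-06).

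Sterol genes had a median gap of -0.024 at 4 weeks and -1.24 at 8 weeks. The gap of Idi1 was -1.27 at 4 weeks and -3.75 at 8 weeks (-2.48, adjusted p 3.15e-05), while that of Sqle was 0.83 and 0.74 and its interaction did not pass (adjusted p 0.758). ATF4 genes had medians of 0.337 and 1.30, and the gap of Atf5 was 0.30 and 2.59 (2.30, adjusted p 1.07e-05). Irf1 and Cxcl10 had gaps of -0.88 and -0.42 at 4 weeks and -2.61 and -3.32 at 8 weeks (-1.73 and -2.90, adjusted p 2.99e-05 and 0.000178). Insulin did not share this pattern, with an interaction of -0.48 (adjusted p 0.43) for Ins2. For Gcg the gap was wider at 8 weeks, from -4.01 to -5.98 (-1.97, adjusted p 0.00173). Its mean level in β libraries was 6904 CPM at 4 weeks and 1989 at 8 weeks, while in non-β libraries it was 108600 and 122900. Gcg made up 0.556% to 0.874% of β counts at 4 weeks, above the 0.139% to 0.245% at 8 weeks, and the part of this difference in α-cell RNA in the other interactions was not tested. Neat1 had gaps of -1.89 and 0.73 (2.62, adjusted p 7.87e-05).

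Endothelial markers had higher means in the non-β libraries at 8 weeks than at 4 weeks, a difference between ages that was not itself tested. The median gap of the endothelial list was -4.13 at 4 weeks and -7.33 at 8 weeks, a larger shift than those of the heat shock, sterol and ATF4 lists, although no interaction passed in its 14 genes. In non-β libraries Kdr had 9.75 ± 5.02 CPM at 4 weeks and 144 ± 95.4 at 8 weeks, with an interaction of -1.55 (SE 2.94, adjusted p 0.838). Flt1 went from 10.2 ± 3.85 to 147 ± 79.4 CPM, with an interaction of -4.19 (SE 1.44, adjusted p 0.126), and Eng from 14.6 ± 3.52 to 128 ± 57.2 (-0.76, SE 1.59, adjusted p 0.857). In β libraries these genes did not exceed a mean of 1.54 CPM at either age. Their standard errors were wide, so the missed threshold does not show that the gaps were alike. The part of endothelial RNA in the interactions above was not tested. The lists of pericyte and δ-cell markers also had no called interaction. Neither did the acinar list, whose median gap was 3.72 at 4 weeks and 0.919 at 8 weeks. The part of acinar RNA in the interactions above was not tested.

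**Figure D5:**
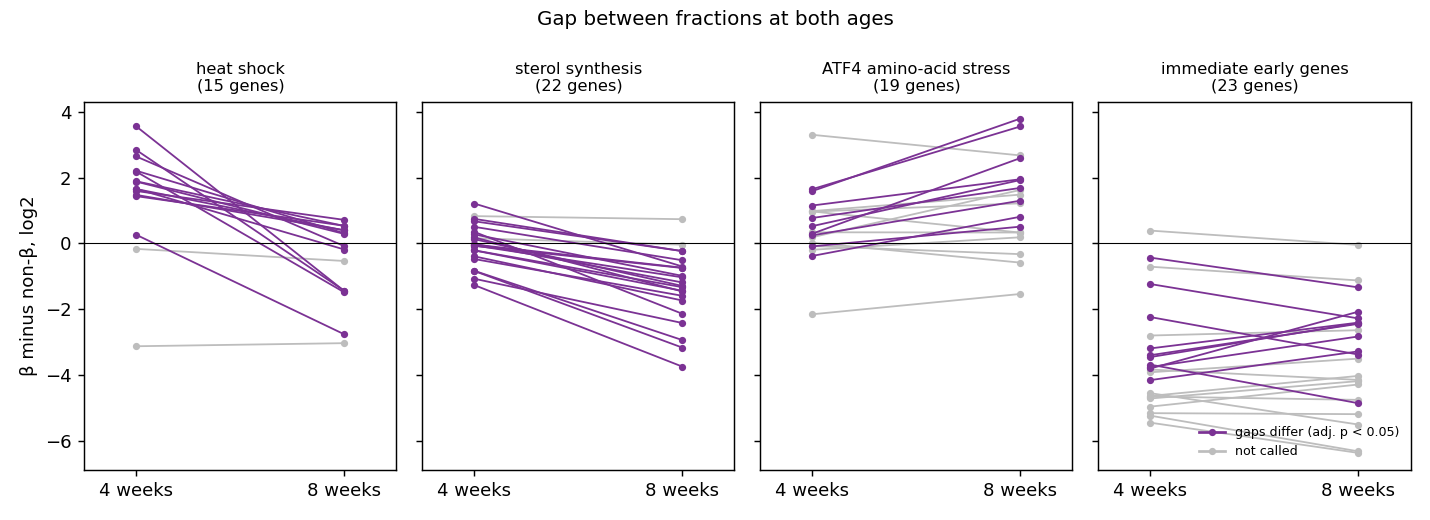
Log2 difference of β minus non-β (y axis) at 4 and 8 weeks for each gene of 4 lists, with 1 line per gene, coloured where the interaction passed an adjusted p of 0.05. Heat shock genes move down from a median of 1.66 to -0.086, sterol genes from -0.024 to -1.24 and ATF4 genes up from 0.337 to 1.30, while immediate early genes lie below or near 0 at both ages.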

How the data were processed

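RNA of 12 libraries was sequenced, 3 for each of β and non-β cells at 4 and 8 weeks. Per the study's methods, the authors filtered 100-bp single-end, reverse-stranded reads with fastp, quantified them with kallisto on Ensembl release 98 transcripts (GRCm38) and summed transcripts to genes with tximport. They deposited estimated counts per gene, unscaled. Versions and the strand setting of kallisto are not given in the sources used here, so reads of a gene and its antisense partner may not be told apart. GENCODE M21 gave symbols and coordinates for 52002 of 52962 identifiers.

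Estimated counts were rounded to whole numbers, and genes with more than 1 CPM in at least 3 of the 12 libraries were kept. The 15598 genes were fitted with limma-voom (limma 3.58.1, edgeR 4.0.16 for TMM scaling, R 4.3.3) with 4 group means and 8 residual degrees of freedom. Adjusted p-values are Benjamini-Hochberg over all tested genes, two-sided, with a threshold of 0.05, and differences are β minus non-β on the log2 scale. CPM values are given per library or as mean ± SD, and are not per length, so levels are compared only within a gene. Lists are described by counts and medians, with no test of the list. The interaction is the 8-week gap minus the 4-week gap. On simulated counts with 200 of 15598 genes changed by 2 on the log2 scale, 100% were recovered in the comparison at 8 weeks, with 11 false calls. Every gene had the same relative spread there, and the unchanged genes the same mean in all groups. The simulation therefore checks the fit and does not give the error rates in these data. Alternatives included edgeR's quasi-likelihood test and DESeq2 1.42.0.

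The 38 gene lists (539 genes, 497 tested) and the genes compared were chosen with earlier results of these data known. Genes are named by size (10 in each direction among those with a symbol, a mean log2 CPM of at least 3 and no overlap of the libraries), by abundance (5 in each fraction) or as up to 4 called members of a list in each direction with the largest differences. Abcc8, Kcnj11, Ptprn, Slc30a8, Hspa5, Chac1, Hspa1a, Fos, H2-K1, H2-D1, Cxcl10, Fgb, Mettl3 and Mettl14 were named after their values were seen. A few list members are counted but not reported here by name. Of the 134 genes with values, 59 overlap another annotated gene, 25 of them a tested one. Promoter windows came from RefSeq (GRCm38.p6) for 11130 tested genes and were searched on both strands.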

Additional observations from a re-analysis of the deposited data

Results flagged for a closer look

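For 38 of the 134 named genes the gap between β and non-β libraries differed between 8 and 4 weeks in a test of the difference itself, the interaction of fraction and age in limma-voom (adjusted p under 0.05 over all 15598 genes). Values below are the 8-week gap minus the 4-week gap on the log2 scale. The gap was wider at 8 weeks in the same direction for 23 of these genes, narrower for 6 and of the other sign at 4 weeks for 9. No explanation of these differences was tested, and age cannot be told apart from anything else that set the 4-week and 8-week libraries apart.

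Among genes of islet identity, the gap moved by -1.97 for Gcg, 1.21 for Nkx6-1, 0.82 for Pdx1 and 0.73 for Isl1. The interaction was -2.48 for Vwde and -1.33 for Egr4, both already far lower in β-cells at 4 weeks, and 1.73 for Fos, whose gap narrowed. Genes of metabolism, excitability and secretion had values of -0.70 for Glud1, 0.72 for Eno2, -1.18 for Kcnk3, -1.44 for Doc2b, 0.76 for Gjd2 and 0.61 for Ptprn.

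In the stress lists the 2 directions were both seen. The ATF4 genes Atf5, Aldh1l2, Trib3 and Chac1 had interactions of 2.30, 2.21, 1.91 and 1.05. The ER genes Eif2ak3, Hspa5 and Herpud1 had -0.90, -0.70 and -0.53. The heat shock genes held the 4 widest values, -5.00 for Hspa1b, -4.28 for Hspa1a, -3.67 for Hspb1 and -3.03 for Dnajb1, and the interaction of Hspd1 was -0.88.

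Of the immune genes, Cxcl10 had an interaction of -2.90, Oasl2 -2.71, Cd74 -2.29, C4b -2.29, Irf1 -1.73, H2-Q7 -1.42, H2-K1 -1.08 and H2-T23 -1.004, while the fibrinogen gene Fgg had 0.72. Values of the same sign did not mean the same course. Oasl2 was higher in β-cells at 8 weeks (0.76), so its gap narrowed, whereas that of Cxcl10 widened from -0.42 to -3.32. The sterol genes Idi1, Hmgcs1 and Insig1 had -2.48, -2.33 and -2.11, and the nuclear RNA Neat1 had 2.62. Interactions of Kcnk3, Doc2b, Gjd2, Ptprn, Herpud1, Hspa5, Oasl2, Fgg, Egr4 and H2-Q7 did not pass when 1 or more of the 6 libraries at 8 weeks was left out, and their values without a library ranged from -2.77 for Oasl2 to 0.81 for Gjd2. The interaction of Kcnk3 moved furthest, to -0.90 (adjusted p 0.166) without β replicate 2.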

How the results depend on the processing

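Under 18 alternatives none of the called differences named here changed direction, and the number of differing genes stayed between 5559 (adjusted p under 0.01) and 9507 (sample quality weights) in all but the 2-fold threshold. Requiring at least 2-fold left 3742 differing genes, 1135 higher and 2607 lower, or 30.3% higher against 48% at the main threshold, because called genes higher in β-cells had smaller differences. Leaving out 1 library at 8 weeks gave 6378 to 7032 differing genes, 2887 to 3308 higher and 3367 to 3802 lower, 334 to 354 differing list genes and 29 to 36 named genes with an interaction. The count of named genes with an interaction was 38 and moved to 64 with the replicate block and to 24 at an adjusted p under 0.01. Whether the replicate numbers pair the libraries is not known. Deviations of same-numbered libraries correlated at 0.018, 0.049 and 0.0080 over all tested genes, against -0.012 for unequal numbers. These values cannot decide it, because a correlation over all genes can miss a pairing that shows in few genes. The acinar sum was highest in replicate 1 of both fractions. The fit with the replicate block (9127 differing genes, and 13 acinar genes higher and 1 lower against 0 and 1) is given here only. An interaction cannot be had from the 6 libraries at 8 weeks alone. Of single-gene differences, 57 values under the alternatives lost the call, 20 of them to the 2-fold threshold, and 8 gained it, 7 for Abcc8 and 1 for Eef1a1 with the replicate block (adjusted p 0.0361). Counts per list and direction moved by more than 1.5 times in 104 cases. The cause of these changes was not tested. Genes near 1 CPM, such as Gad2, Isg15 and Sstr1, rest on few counts, with the shallowest library at 13755106.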
